A study of Mus musculus with 677 samples.

Results

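The nuclear-encoded genes of the mitochondrial respiratory chain and ATP synthase were followed across the cell types of the mouse intestinal epithelium, and between wild-type (WT) and Atg16l2 knockout (KO) animals. Members were taken from the deposited expression table by symbol: Nduf genes of the A, B, C, S and V series, Sdha to Sdhd, the Uqcr genes, Cox4 to Cox8 genes and the Atp5 genes, with a mean of at least 1 TPM over all cells. TPM, a length-scaled transcript share, is a relative abundance that adds up to the same total in every cell. The rule gave 78 of 23420 genes, of which 36 belong by symbol to complex I, 4 to complex II, 8 to complex III, 13 to complex IV and 17 to complex V. A further 6 matching rows lay below the limit. Among them Ndufa4l2, Cox4i2, Cox8b and Cox8c were listed at 0 in every cell, while Cox7b2 stood at 0.0268 TPM and Cox6a2 at 0.183 TPM. The lowest member was Cox6b2, at 5.94 TPM.

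The series held 677 single-cell libraries from WT and KO mice of the C57BL/6 strain, made with SMART-Seq2, a method that copies whole transcripts of a single cell. Every title carried a run number (1 or 2), a code M1 or M2, read here as an animal, and 1 of 9 cell types, so each genotype had 2 animals. Whether a code stood for the same animal in both runs, how the knockout allele was made, and the age and sex of the mice are not given in the sources used here. The comparison asked what loss of Atg16l2, a homologue of the autophagy gene Atg16l1, does to these cells. Atg16l2 was above 0 TPM in 38 WT cells (11.3%) and in 0 KO cells, which allows a share of up to 0.877% of cells by counting error alone. Marker lists were at hand for 7 of the labels, and each was highest in its own cells. No list was run for the progenitor labels, where Enterocyte markers summed to 1415 TPM (early) and 3228 TPM (late), against 21507 TPM in Enterocyte cells. Neighbouring types shared some markers: Stem markers summed to 17467 TPM in Stem and 8795 TPM in TA cells, proliferation markers to 1434 TPM in TA and 1219 TPM in Enterocyte.prog.early cells, and Paneth markers to 347961 TPM in Paneth and 32815 TPM in Goblet cells. Summed markers of T, B, myeloid, stromal, endothelial and red cells stayed at or below 81.9 TPM in every type. Depth cannot be read from TPM. The median cell had 6109 genes above 0 TPM, and medians per animal ran from 6247 to 6615 in run 1 and from 5460.5 to 5878 in run 2.

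The respiratory chain sits in the inner mitochondrial membrane. Complex I (NADH dehydrogenase) and complex II (succinate dehydrogenase) pass electrons to ubiquinone, complex III hands them to cytochrome c, complex IV (cytochrome c oxidase) reduces oxygen, and complex V uses the proton gradient to make ATP. Most subunits are encoded in the nucleus, and a few subunits of complexes IV and V come in alternative versions that differ between tissues. In the intestine, Lgr5-positive stem cells at the crypt base produce transit-amplifying (TA) cells, which become absorptive enterocytes on the villus or secretory goblet, Paneth, enteroendocrine and tuft cells.

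Member transcripts were abundant. The mean over all cells ran from 5.94 to 2697 TPM with a median of 436 TPM, and 73 of the 78 members were above 0 TPM in at least 90% of cells. The highest member of each complex was Ndufa4 (1166 TPM; an Nduf gene by name whose product is now placed in complex IV), Sdhb (840 TPM; the iron-sulfur subunit of succinate dehydrogenase), Uqcrc1 (1261 TPM; a core subunit of complex III), Cox4i1 (2657 TPM; the regulatory subunit 4 of cytochrome c oxidase) and Atp5b (2697 TPM; the catalytic beta subunit of ATP synthase). Seen in fewer than 50% of cells were Cox6b2, Atp5s, Cox7a1 and Ndufs5. Of these, Ndufs5, a small accessory subunit of complex I, has a near-identical copy in the table, BC002163, which was above 0 TPM in 87.6% of cells at 231.6 TPM against 54.6 TPM for Ndufs5. Reads of such a pair can be split between its rows, so Ndufs5 values are uncertain. In the GENCODE M21 transcripts, 20 members have a copy at 95% identity or more over at least 80% of the coding sequence. Of these copies, those of Ndufs5, Uqcr10 (4930481A15Rik, 10.2 TPM) and Cox7c (Gm10012, 2.18 TPM) have a row in the table. Exons of 27 members overlap those of another gene, such as Ndufa3 with Tfpt and Ndufs1 with Eef1b2. SMART-Seq2 does not mark the strand, and the strand setting of the counts is not given in the sources used here.

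Member transcripts took a larger part of the TPM total with each step from Stem cells to late enterocyte progenitors, and a smaller part in Goblet cells. Summed over all members, Stem cells held 39694 ± 5014 TPM (SD, n = 4 animals), or 3.97% of the TPM total. That total had no row with the mt- prefix of genes encoded in the mitochondrial genome. The sum was 46878 ± 7009 TPM in TA, 57814 ± 6394 TPM in Enterocyte.prog.early, 64783 ± 9814 TPM in Enterocyte.prog.late and 60231 ± 4431 TPM in Enterocyte cells. Goblet cells held 28649 ± 6409 TPM. Within each of the 4 animals, TA, both progenitor classes and Enterocyte cells lay above Stem cells and Goblet cells below them. The paired difference from Stem was 20537 ± 1213 TPM for Enterocyte and -11045 ± 4339 TPM for Goblet cells. For each, the two-sided exact permutation p was 0.13, the smallest that 4 paired animals allow (Benjamini-Hochberg adjusted p = 0.179 over 10 comparisons). The animal values pool cells of both runs in unequal parts, so these SDs are not those within a run. KO M2, for example, gave 4 Stem cells in run 1 and 14 in run 2. Within each run Enterocyte cells lay above Stem cells in every animal. Goblet cells lay below Stem cells except for KO M2 in run 1 (22936 against 22508 TPM). The means of Enterocyte.prog.early and Enterocyte cells differed by less than the SD of either, and those of Enterocyte.prog.late and Enterocyte cells by less than the larger SD of the pair.

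In all 5 complexes the mean sum climbed from Stem through TA and Enterocyte.prog.early to Enterocyte.prog.late cells and was lower in Goblet than in Stem cells. Enterocyte cells lay above Enterocyte.prog.early cells for complexes II to V and below them for complex I (14911 against 15190 TPM). Complex I members summed to 11272, 11948, 11080 and 8426 TPM in Stem cells of WT M1, WT M2, KO M1 and, last, KO M2, and to 15136, 15958, 15909 and 12643 TPM in their Enterocyte cells. KO M2 was the lowest animal in both types, and every Enterocyte value was above every Stem value. Complex II members summed to 1664, 1785, 1819 and 1537 TPM in Stem and to 3135, 2996, 3383 and 2918 TPM in Enterocyte cells. These groups did not overlap either. Relative to the Stem mean, the Enterocyte mean was 1.40-fold for complex I, 1.83-fold for complex II, 1.61-fold for complex III, 1.49-fold for complex IV and 1.57-fold for complex V. In Goblet cells these ratios were 0.743, 0.659, 0.741, 0.714 and 0.711. The makeup of the member sum moved little. Across the 9 types complex I took 24.8% to 28.6% of member TPM, complex II 3.62% to 5.16% and complex III 10.0% to 13.4%. Complex IV took 24.3% to 27.7% and complex V 30.4% to 32.3%.

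**Figure D1:**
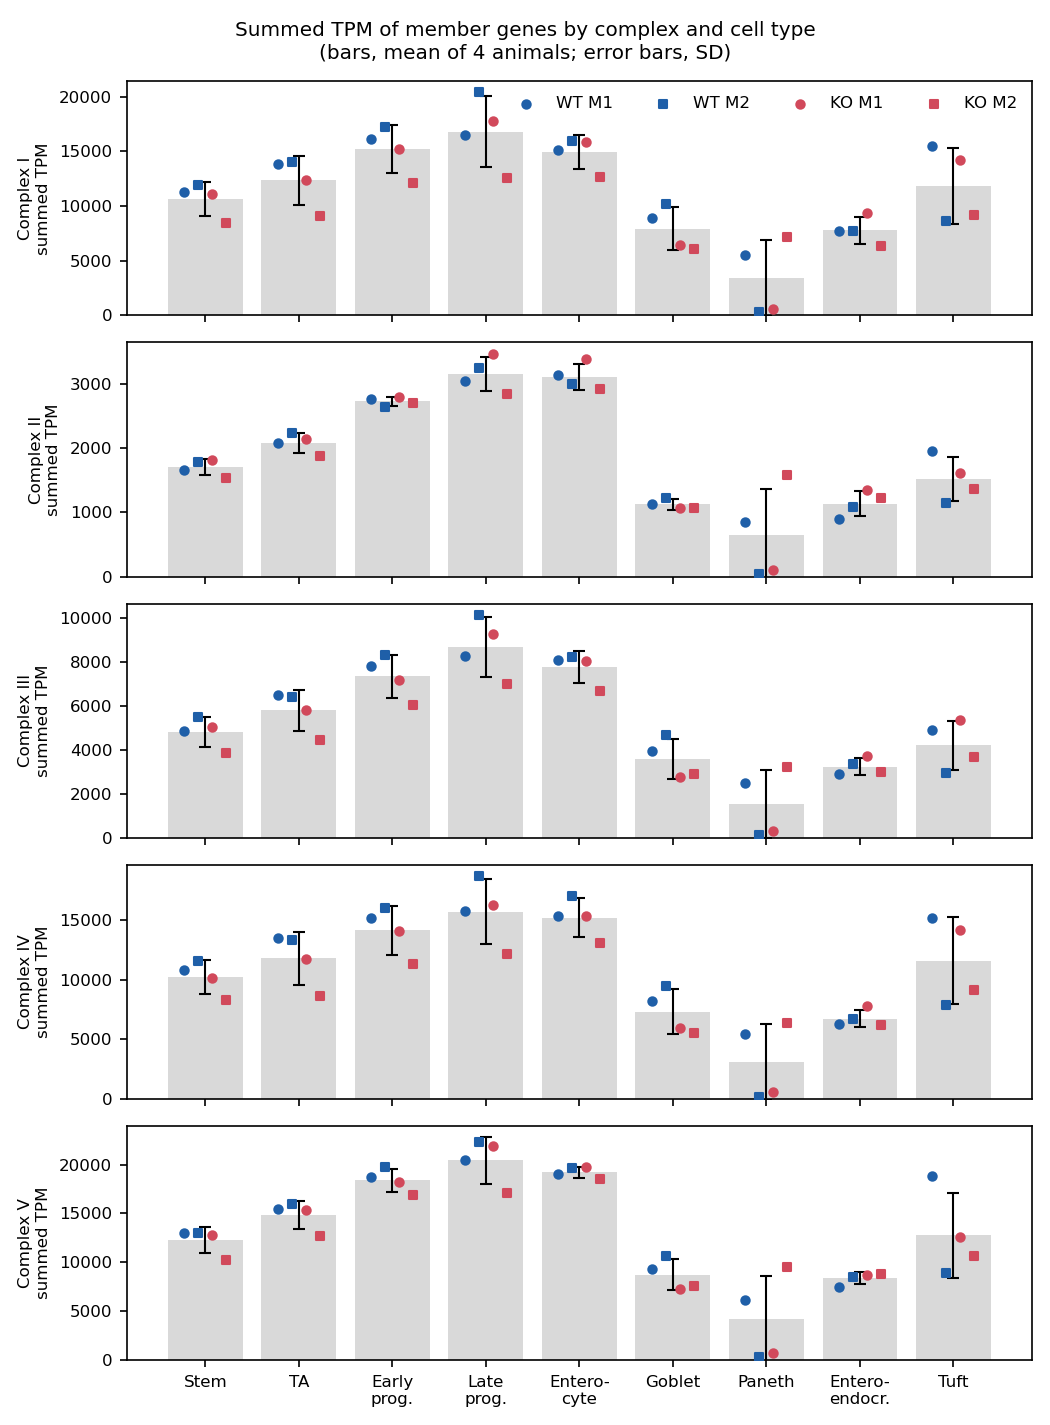
Summed TPM of the members of each complex (y axes, linear, from 0) in the 9 cell types (x axis); bars are means and error bars SDs over 4 animals, circles M1 and squares M2, blue WT and red KO. Sums climb from Stem to Enterocyte.prog.late cells in all 5 complexes and are lower in Goblet cells, while the 4 Paneth values are far apart.

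The rare types were left out of the tests gene by gene, since some animals gave fewer than 10 cells. Their sums are among the 10 exact comparisons, with p = 0.13 for Paneth and for Enteroendocrine minus Stem and 0.625 for Tuft minus Stem (exact permutation). Enteroendocrine cells (32 cells) held 27250 ± 2563 TPM of members, close to Goblet cells and below Stem cells in all 4 animals. Tuft cells (7 cells, 1 or 2 per animal) ranged from 29391 to 56398 TPM, a range that takes in the Stem mean; their means lay above Stem for complexes I, IV and V and below it for complexes II and III. Paneth cells (22 cells) gave 20422 TPM in WT M1, 984 TPM in WT M2, 2268 TPM in KO M1 and 27845 TPM in KO M2. Their 4 values form no common level: the median Paneth cell held 1042 TPM and the highest 61592 TPM. In these cells the 7 Paneth markers summed to 347961 TPM on average. Their part in the low values was not tested.

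Tested gene by gene, most members were higher in Enterocyte than in Stem cells. The limma fit used log2(mean TPM + 1) of each animal and type for the 6 types with at least 10 cells per animal. The fit took the cells of both runs together, with the animal as a covariate and no run term. It covered 6813 genes, 77 members among them; Cox6b2 fell under the filter on low values. Of the 77 members 64 were called higher and 3 lower in Enterocyte cells (Benjamini-Hochberg adjusted p under 0.05 over all genes), where 23.4% of all genes tested were called higher and 36.5% lower. The median over members was 0.59 on the log2 scale, against -0.28 over all genes, and 66 members were higher in all 4 animals. Of all genes 40.7% had a positive mean difference, and the share higher in all 4 animals was not counted. With quantile normalization 41 members were called higher and 6 lower, where 25.7% of all genes were called higher and 28.8% lower. By complex, 29 of 36 members of complex I were called higher, 4 of 4 of complex II, 7 of 8 of complex III, 10 of 12 tested of complex IV and 14 of 17 of complex V. Over the 6 types as a whole 75 of 77 members varied (moderated F, adjusted p under 0.05), where 77.3% of all genes did. How the authors assigned cells to types is not given in the sources used here, and if expression of these genes entered it, p-values between types are too small. With the animal as a covariate, p-values measure how the type differences vary between these animals, 2 per genotype. Their profiles mix cells of both runs.

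Among the subunits that carry electrons, and among all members, the iron-sulfur protein of succinate dehydrogenase had the smallest p. Sdhb stood at 593, 603, 576 and 542 TPM in Stem cells of WT M1, WT M2, KO M1 and, last, KO M2 and at 1290, 1322, 1474 and 1171 TPM in Enterocyte cells. No Enterocyte value came near the Stem range. The log2 difference was 1.18 (SE 0.08, limma adjusted p = 2.49e-11). Uqcrfs1, the Rieske iron-sulfur protein of complex III, went from 349.4 ± 23.8 TPM to 808 ± 36.4 TPM (SD, n = 4), a difference of 1.21 (SE 0.10, limma adjusted p = 8.94e-10). Sdhd, a membrane anchor of complex II, also stood higher (adjusted p = 2.38e-08). Of core subunits of complex I, Ndufs1, which holds iron-sulfur clusters of the entry arm, differed by 0.87 (SE 0.15), and Ndufv1, which binds NADH, by 0.35 (SE 0.12, adjusted p = 0.0155).

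Structural subunits of complexes IV and V followed. Cox5a, a matrix-side subunit of cytochrome c oxidase, stood at 598, 677, 732 and 545 TPM in Stem and at 1528, 1514, 1295 and 1301 TPM in Enterocyte cells. The groups lay far apart, with a log2 difference of 1.15 (SE 0.09, limma adjusted p = 3.43e-10). Cox4i1 differed less, from 2611 ± 298.8 TPM to 3392 ± 230 TPM (0.38, SE 0.11). Atp5k, the small e subunit of ATP synthase, differed by 1.17 (SE 0.16), and the catalytic Atp5b by 0.64 (SE 0.08). Among the members not called were Ndufa2, Ndufb4, Ndufb5, Ndufb11, Ndufs5, Uqcr10, Cox7c, Atp5s and Atp5sl. The last pair carry the ATP synthase name, although the product of Atp5sl is known as an assembly factor of complex I.

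Differences were spread over the absorptive lineage, and most members were highest in late progenitors. The median member was 0.26 higher (log2) in TA than Stem cells, 0.33 higher in Enterocyte.prog.early than TA, 0.15 higher in Enterocyte.prog.late than Enterocyte.prog.early, and stood at -0.10 for Enterocyte minus Enterocyte.prog.late cells. All genes tested had medians of 0.11, 0.01, -0.13 and -0.19 at these steps. A positive difference at each of the first 3 steps was found for 65 of 77 members. Taken singly, these steps had a positive difference in 62.4%, 50.6% and 39.9% of all genes tested. The share of all genes positive at each of them was not counted. The highest type was Enterocyte.prog.late for 55 members, Enterocyte for 13, Enterocyte.prog.early for 7 and Stem for 2 (Ndufa7 and Cox7a2l). All genes were not counted by their highest type. At the last step KO M2 went against the other animals, with a median of 0.05 against -0.11 to -0.23.

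**Figure D2:**
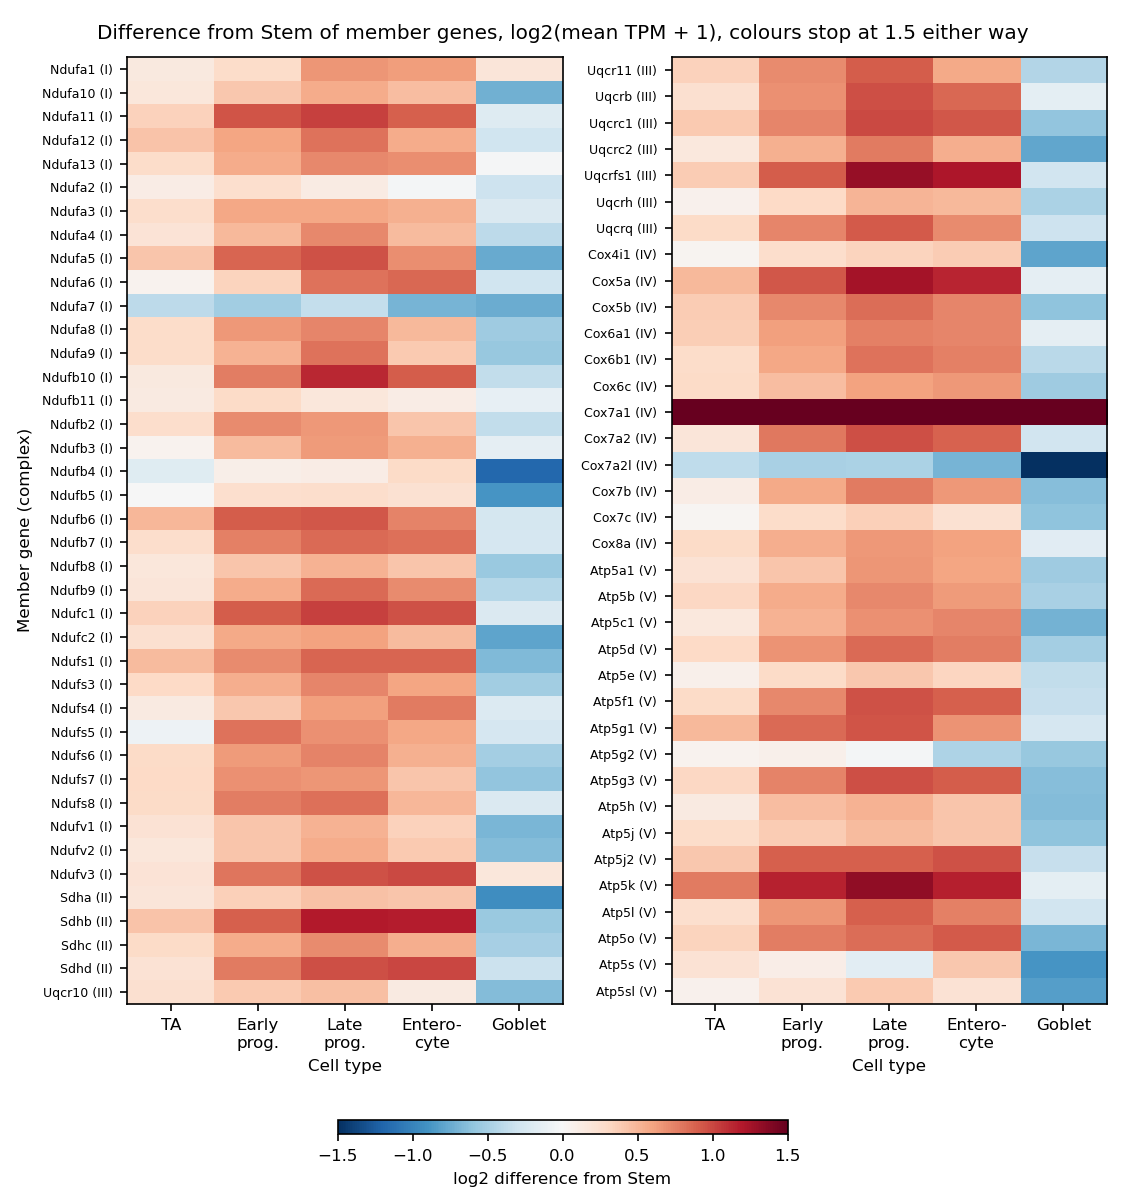
Difference of tested members from Stem cells in log2(mean TPM + 1), mean of 4 animals, with genes in rows, cell types in columns and colour for the difference (red higher, blue lower). Most rows deepen in red up to Enterocyte.prog.late and turn blue in Goblet cells; Cox7a1 is beyond the colour range in all 5 columns, and Ndufa7 and Cox7a2l are blue in all of them.

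Called lower were Cox7a2l, Atp5g2 and Ndufa7, of which Cox7a2l and Atp5g2 belong to sets of paralogs. Cox7a1, Cox7a2 and Cox7a2l encode alternative forms of subunit 7a, of which Cox7a1 is best known from heart and skeletal muscle. Cox7a2l is known from work on supercomplexes of complexes III and IV. Neither its protein nor supercomplexes were measured in these mice. Cox7a1 was listed at 0 TPM in Stem cells of WT M1 and KO M2 and stood at 5.62 TPM in WT M2 and 0.978 TPM in KO M1. In Enterocyte cells the values were 193.1, 327.9, 194.4 and 152.7 TPM, all far above Stem. It was above 0 TPM in 3.12% of Stem, 20.6% of TA, 50% of Enterocyte.prog.early, 74.7% of Enterocyte.prog.late and 91.4% of Enterocyte cells. The Enterocyte minus Stem difference was 6.78 (SE 0.54, limma adjusted p = 5.81e-10) on a scale with a pseudocount of 1, which understates differences from values near 0. Cox7a2, the widely expressed form, differed by 0.89 (SE 0.11), from 282.7 ± 87.5 TPM to 522 ± 154.1 TPM. Cox7a2l stood at 720, 835, 829 and 776 TPM in Stem and at 511, 392, 575 and 477 TPM in Enterocyte cells, with no overlap (-0.70, SE 0.11, limma adjusted p = 6.86e-06).

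As shares of the summed TPM of the Cox7a set, Cox7a1 made up 0.137 ± 0.218% in Stem and 17.4 ± 3.56% in Enterocyte cells (SD, n = 4). Cox7a2l went from 73.9 ± 6.03% to 40.8 ± 9.48%, and Cox7a2 from 25.97 ± 5.90% to 41.9 ± 6.11%. Outside the absorptive lineage Cox7a1 was lower than in Enterocyte cells, with 19.4 ± 13.1 TPM in Goblet cells, where 21 of 70 cells were above 0. Its mean share of the set in Goblet (3.59 ± 2.47%) and Paneth cells (3.24 ± 2.02%) was above that in TA cells (1.14 ± 0.520%). It was above 0 in 1 of 32 Enteroendocrine cells and 0 of 7 Tuft cells. The exact 95% binomial interval for the Tuft share, which covers counting error over cells and not the spread between animals, reaches 40.96%. Cox7a2l made up 81.3 ± 1.63% of the set in Enteroendocrine cells.

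The stretches upstream of the 3 genes, taken from RefSeq (GRCm38.p6) and trimmed to bases outside annotated exons, are shown because the paralogs differed in direction. For Cox7a2l the RefSeq start lies inside the gene as GENCODE M21 places it (chr17:83501918-83517330), so the stretch is upstream of that start only. They read 5′ to 3′ on the strand of the gene, and none holds any of the motifs searched below.
Cox7a1 (chr7:30183921-30184143, plus strand): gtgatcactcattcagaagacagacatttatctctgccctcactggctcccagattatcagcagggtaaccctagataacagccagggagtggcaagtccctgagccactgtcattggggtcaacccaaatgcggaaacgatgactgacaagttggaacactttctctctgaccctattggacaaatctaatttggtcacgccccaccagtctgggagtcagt
Cox7a2 (chr9:79759879-79760103, minus strand): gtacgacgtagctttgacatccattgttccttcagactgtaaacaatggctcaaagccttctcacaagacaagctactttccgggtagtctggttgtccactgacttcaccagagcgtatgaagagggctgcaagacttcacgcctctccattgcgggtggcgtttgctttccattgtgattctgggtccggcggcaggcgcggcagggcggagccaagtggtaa
Cox7a2l (chr17:83514334-83514583, minus strand): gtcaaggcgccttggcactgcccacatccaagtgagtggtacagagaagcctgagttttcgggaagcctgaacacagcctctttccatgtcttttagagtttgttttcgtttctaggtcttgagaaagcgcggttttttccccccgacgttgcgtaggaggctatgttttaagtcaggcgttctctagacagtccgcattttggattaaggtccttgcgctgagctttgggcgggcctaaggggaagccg

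A second set encodes subunit c of the ATP synthase rotor from 3 genes whose mature proteins are the same. Atp5g3 rose from 979 ± 159.5 TPM in Stem to 1824 ± 97.6 TPM in Enterocyte cells (0.91, SE 0.09, limma adjusted p = 2.67e-08), and Atp5g1 from 738 ± 121.2 TPM to 1172 ± 72.5 TPM (0.68, SE 0.12). Atp5g2 fell, from 921, 822, 847 and 613 TPM to 532, 535, 669 and 568 TPM (-0.47, SE 0.12, limma adjusted p = 0.00162). Its Stem and Enterocyte ranges overlapped, since KO M2 had a low Stem value, but it was lower in all 4 animals. In run 2 cells the Stem and Enterocyte means of Atp5g2 were 732 and 458 TPM in WT animals. They were 733 and 659 TPM in KO animals, a small fall. Fewer members were called lower in run 2 cells alone and in KO cells alone, as given in the closing section. The share of Atp5g2 in the set was 31.7 ± 1.59% in Stem, 26.95 ± 2.35% in TA, 22.2 ± 1.64% in Enterocyte.prog.early, 19.1 ± 1.64% in Enterocyte.prog.late and 16.1 ± 1.34% in Enterocyte cells, and 30.1 ± 1.64% in Goblet cells. Atp5g3 took 51.1 ± 0.182% in Enterocyte cells, the tightest value over animals in this set.

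**Figure D3:**
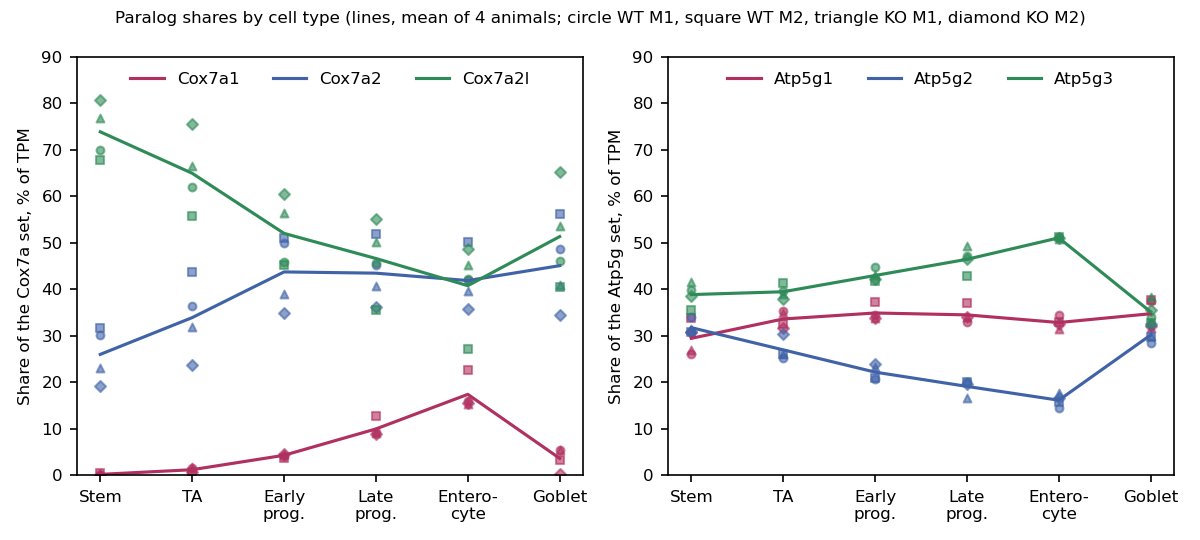
Share of each paralog in the summed TPM of the Cox7a set (left) and the Atp5g set (right), in percent (y axis, from 0), over 6 cell types (x axis); lines are means and symbols single animals. Cox7a1 climbs from 0.137% in Stem to 17.4% in Enterocyte cells while Cox7a2l declines, and Atp5g2 declines from 31.7% to 16.1% while Atp5g3 climbs to 51.1%.

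The third member called lower was Ndufa7, an accessory subunit of complex I, at 452, 582, 433 and 325.1 TPM in Stem and 297.6, 259.9, 345.4 and 200.7 TPM in Enterocyte cells (-0.70, SE 0.15, limma adjusted p = 0.00038). KO M2 in Stem lay within the Enterocyte range. In run 2 cells alone and in KO cells alone Ndufa7 was not called (adjusted p = 0.140 and 0.0697). Other paralog pairs were nearly one-sided. Cox4i1 stood at 2657 TPM over all cells while Cox4i2 was listed at 0, as were Cox8b and Cox8c beside Cox8a at 1685 TPM. Cox6a1 (1363 TPM) outweighed Cox6a2, which was above 0 in 1 cell, as was Cox7b2. The testis-type Cox6b2 was seen in 15 of 96 Stem cells (12.7 ± 7.004 TPM), 20.6% of TA cells (9.17 ± 6.63 TPM) and 1 of 58 Enterocyte cells (0.428 ± 0.856 TPM), against 1105 TPM over all cells for Cox6b1.

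Promoters were scanned for letters of 5 factors linked to mitochondrial genes or enterocytes, since most members moved together. RefSeq gave 73 starts for 67 of the 78 members, each with 250 bases before and 50 after the start, and 32851 starts over all genes. TGCGCA, the core of the NRF1 motif, which reads the same on both strands, was in 19 of 73 member promoters (26.03%) and in 7.76% of all promoters. CCGGAAG, an ETS motif bound by GABPA, was in 21.9% and 8.86%, and AAGATGGC, for YY1, in 16.4% and 2.75%, both strands searched. TCAAGGTCA, for ERRA, was in 2 of 73 member promoters (2.74%) and 0.423% of all, and CAAAGTCCA, for HNF4A, in 0 and 0.475%. Median GC content was 57.7% in member and 52.7% in all promoters, and matches are a description of these windows, not of binding. Upstream stretches of 2 members with matches outside annotated exons follow, with the matched letters in capitals: the ERRA letters (minus orientation) for Atp5g3, and the ETS letters (minus orientation) and the NRF1 core for Ndufb6.
Atp5g3 (chr2:73911327-73911576, minus strand): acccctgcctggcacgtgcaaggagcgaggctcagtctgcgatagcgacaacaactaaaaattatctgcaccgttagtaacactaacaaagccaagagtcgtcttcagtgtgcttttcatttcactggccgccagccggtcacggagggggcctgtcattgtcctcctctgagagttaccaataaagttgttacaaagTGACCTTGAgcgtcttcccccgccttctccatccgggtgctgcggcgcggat
Ndufb6 (chr4:40279422-40279671, minus strand): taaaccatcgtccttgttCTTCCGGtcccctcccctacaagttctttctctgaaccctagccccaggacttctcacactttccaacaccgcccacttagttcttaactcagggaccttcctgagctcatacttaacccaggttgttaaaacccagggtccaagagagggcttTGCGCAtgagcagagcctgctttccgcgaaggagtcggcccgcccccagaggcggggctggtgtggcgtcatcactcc

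Against Stem cells, Goblet cells had lower shares of most members. Of 77 members 52 were called lower and 1 higher, where 31.9% of all genes tested were called lower and 14.5% higher. The median was -0.49 over members and -0.32 over all genes. Called lower were 20 of 36 members of complex I, 4 of 4 of complex II, 6 of 8 of complex III, 8 of 12 of complex IV and 14 of 17 of complex V. Both higher in Enterocyte and lower in Goblet cells were 43 members, against 5.14% of all genes tested; both calls share the Stem profiles. In run 1 cells alone 25 members were called lower, with a median of -0.24, where 16.8% of all genes were called lower. In WT cells alone 27 were, where 18.8% of all genes were. Goblet markers summed to 134729 TPM and Paneth markers to 32815 TPM in Goblet cells, against 221.5 and 847 TPM in Stem cells. Their part in the lower shares was not tested.

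Cox7a2l had the smallest p in that comparison, with 262.1, 263.98, 241.5 and 253.1 TPM in Goblet cells of WT M1, WT M2, KO M1 and, last, KO M2, all far below its lowest Stem value of 720 TPM. The log2 difference was -1.63 (SE 0.11, limma adjusted p = 5.95e-11). Sdha, the flavoprotein that binds succinate, differed by -0.94 (SE 0.10, adjusted p = 9.9e-08), and Ndufb4 by -1.17 (SE 0.14). Cox7a1 was the 1 member called higher (2.82, SE 0.54, adjusted p = 0.000196). Ndufa1, an accessory subunit of complex I, had the next smallest p among positive differences (0.18, SE 0.14, adjusted p = 0.292), which turned negative with run 2 cells alone and with either trend in length removed.

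Across single cells of one type, pooled over runs, genotypes and animals, complexes I and V varied together. Pearson's r between the log2 summed TPM of complexes I and V was 0.81 over 96 Stem cells, 0.82 over the TA cells, 0.88 over 58 Enterocyte cells and 0.97 over 70 Goblet cells. The least related pair of the 5 complexes had r = 0.30 in Stem, 0.45 in TA and 0.33 in Enterocyte.prog.early cells. In Enterocyte.prog.late, Enterocyte and Goblet cells that r was 0.58, 0.64 and 0.92. The log2 member sum also went with the number of genes above 0 TPM in Stem (r = 0.42) and Goblet cells (r = 0.56), and less so in TA (0.052) and Enterocyte cells (0.096). These values are a description, since both sums come from the same library with a fixed total. Member levels also differed between the pooled runs and animals, as given below. The part of these differences and that of genes detected were not tested. In Goblet cells the summed member TPM of single cells ran from 418 to 61589 TPM.

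Other genes of mitochondrial metabolism gave a mixed picture between Enterocyte and Stem cells; the background is the same 23.4% called higher and 36.5% called lower. In the citric acid cycle and pyruvate dehydrogenase, 8 of 16 genes were called higher and 2 lower (median 0.48), led by Mdh2, malate dehydrogenase (2.10, SE 0.09), and Ogdh, oxoglutarate dehydrogenase (1.94, SE 0.12), while Pdha1 (-0.49, SE 0.10) and Suclg2 (-0.48, SE 0.11) fell. In glycolysis 11 of 14 were called higher and 1 lower (median 0.98): Pkm, pyruvate kinase, rose (2.02, SE 0.10) and Hk2, hexokinase 2, fell (-3.53, SE 0.36). Chain proteins that the symbols leave out had 10 of 13 higher and 1 lower, among them cytochrome c1 (Cyc1, 0.88, SE 0.08) and cytochrome c (Cycs, 1.40, SE 0.14). Factors that assemble the complexes had 7 of 36 higher and 7 lower (median -0.26), with Sco2, a copper chaperone of complex IV, up (0.82, SE 0.21) and Tmem70, needed for complex V, down (-0.80, SE 0.16). Mitochondrial ribosomal proteins had 5 of 76 higher and 18 lower (median -0.31), and the import machinery 2 of 22 higher and 8 lower (median -0.35). Of 9 regulators of mitochondrial biogenesis tested, Esrra rose (1.42, SE 0.35), while 4 fell, Pprc1 (-2.90, SE 0.24) and Tfam (-1.68, SE 0.23) among them. Mitophagy genes were split, 2 of 8 each way. Cytosolic ribosomal proteins had 78 of 81 lower and 0 higher (median -1.22).

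Genotype was compared within each run. In run 1, member sums averaged over 6 cell types were 63100 and 65528 TPM in WT M1 and WT M2 and 57227 and 35852 TPM in KO M1 and KO M2. Both KO animals were below both WT animals, and KO M2 stood apart. The KO mean was 0.724 of the WT mean, and 0.890 with KO M1 alone. Median genes above 0 TPM per cell, 6547 and 6615 in KO and 6599 and 6247 in WT, overlapped in that run. In run 2 the sums were 42374 and 44159 TPM for WT animals, against 43478 and 44455 TPM for KO animals, which overlapped (ratio 1.02). The two-sided exact permutation p was 0.33 in run 1, the smallest that 2 against 2 animals allow, and 0.667 in run 2.

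No member passed the test in either run. With limma on the average of the 6 types, 0 of 77 members were called in run 1, where 0% of all genes were called higher and 0% lower; 21 members and 449 of 6813 genes had an unadjusted p under 0.05. The median over members was -0.67 (log2, KO minus WT) against 0.09 over all genes. Lower in KO were 67 of 77 members and 2730 of 6813 genes. Both KO animals lay below both WT animals for 49 of 77 members, where this held for 13.5% of all genes tested. KO M1 had a median of -0.20 against the WT mean (57 members lower) and KO M2 a median of -1.10 (72 lower). Of all 6813 genes 2450 were lower in KO M1 and 3016 in KO M2. Without KO M1, 56 members were called lower, with the lone KO animal assumed to vary like the WT animals; without KO M2, 0 were called. Of all genes, 7.87% were called lower without KO M1 and 0.0587% without KO M2. In run 2, 0 members were called, where 0.103% of all genes were called higher and 0% lower, and 0 members had an unadjusted p under 0.05. There the median was -0.03 (all genes -0.03), and 46 of 77 members were lower, as were 3735 of 6813 genes. Both KO animals lay below both WT animals for 17 members, near the 19.8% of all genes.

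**Figure D4:**
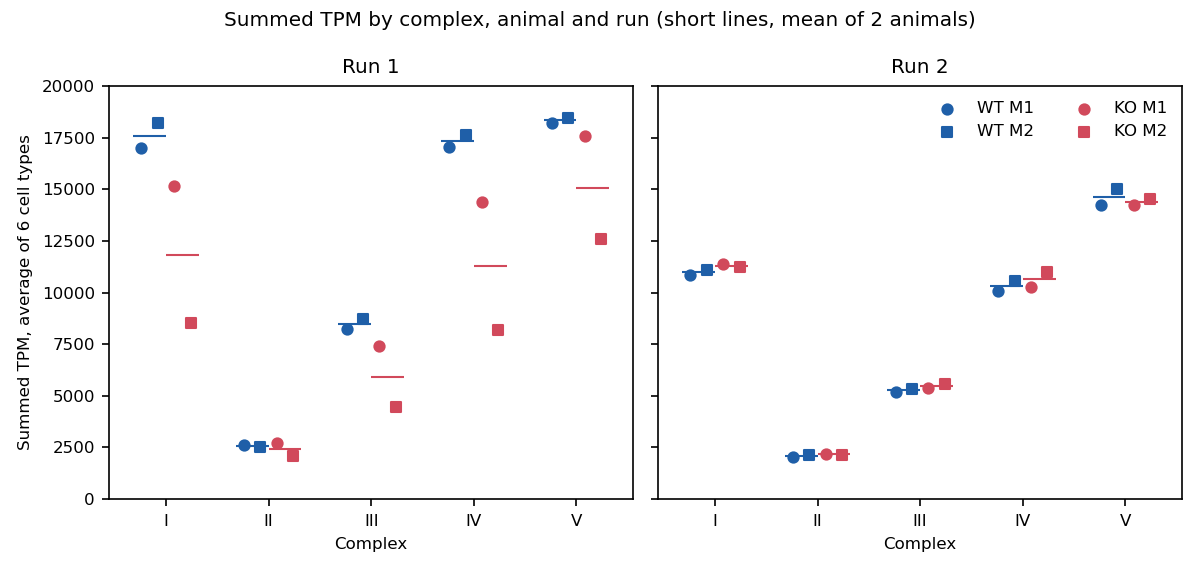
Summed TPM of each complex (y axis, from 0), averaged over 6 cell types, in the 4 animals of run 1 (left) and run 2 (right); symbols are animals, short lines the mean of 2. In run 1 KO M2 is the lowest animal for all 5 complexes, whereas in run 2 the 4 animals lie close together.

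By complex, the run 1 median was -0.70 for complex I, -0.19 for complex II, -0.58 for complex III, -0.75 for complex IV and -0.40 for complex V; 0 of 4 members of complex II had both KO animals below both WT animals, against 26 of 36 in complex I. In run 2 all 5 medians lay between -0.07 and 0.04. Among lower members of run 1, a pair of small accessory subunits of complex I had the smallest p. Ndufa2 stood at 470 and 586 TPM in WT animals, against 316.6 and 200.95 TPM in KO animals (-1.05, SE 0.29, limma adjusted p = 0.696), and Ndufa3 at 615 and 669 TPM against 380.9 and 221.8 TPM (-1.14, SE 0.32, same adjusted p). Ndufa3 overlaps exons of Tfpt, and Ndufa2 those of Tmco6, on the opposite strand. In run 2 their differences were -0.07 (SE 0.14) and -0.09 (SE 0.14). Ndufs6, of the same complex, gave -1.03 (SE 0.31) and -0.16 (SE 0.15). On the positive side, Ndufs1 stood at 143.2 and 139.1 TPM in WT animals, against 159.3 and 180.9 TPM in KO animals of run 1 (0.33, SE 0.21), and Sdha at 638 and 593 against 741 and 729 TPM (0.26, SE 0.24). In run 2 both had the opposite sign (-0.18, SE 0.16, and -0.14, SE 0.13).

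In run 2 the smallest p among positive differences were those of Ndufs5 (0.66, SE 0.38, limma adjusted p = 0.948), whose row is uncertain as described, and Ndufb6 (0.19, SE 0.13). Averaged over the 6 types, Ndufs5 had 28.5 and 22.1 TPM in WT animals, against 32.5 and 18.3 TPM in KO animals, which overlap. Among negative differences they were those of Cox5a (-0.17, SE 0.13) and Atp5k (-0.22, SE 0.16). A total of 74 of 77 members lay within 0.25 of 0 there, against 16 in run 1. The share of all genes in that band was not counted.

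The difference between the runs was tested as an interaction, with 0 of 77 members called higher or lower in limma (0% and 0% of all genes; 13 members and 428 genes at an unadjusted p under 0.05). The median was 0.61 over members and -0.10 over all genes. Uqcr11, a small subunit of complex III, was listed with 1512 and 1764 TPM for WT, against 1008 and 502 TPM for KO, in run 1, and at 640 and 656 TPM against 732 and 728 TPM in run 2 (1.42, SE 0.43, adjusted p = 0.731). Of the opposite sign, Ndufs1 (-0.51, SE 0.27) and Sdha (-0.40, SE 0.26) had the smallest unadjusted p. Without KO M1, 36 members were called higher, where 3.54% of all genes were, and without KO M2 0 members and 0% of all genes. Pooling the cells of both runs gave 0 of 77 called either way (0% and 0% of all genes; 29 members and 518 genes at an unadjusted p under 0.05), with a median of -0.32 and 69 members lower. Over all genes tested the pooled median was 0.03, and 3068 of 6813 genes were lower. Among members the smallest p were those of Ndufa3 (-0.76, SE 0.16, limma adjusted p = 0.476) and Ndufv3 (-0.65, SE 0.15, limma adjusted p = 0.489).

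In WT animals alone the members differed between the runs. The median of run 2 minus run 1 was -0.65, against -0.13 over all genes. Lower in run 2 were 71 of 77 members and 4428 of 6813 genes. The WT libraries of the runs thus stood at different member levels, and the comparison over both runs mixes them.

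The run 1 difference went with coding length. Over the 77 members Pearson's r between log2 coding length and KO minus WT was 0.76 in run 1 (Spearman's rho 0.73) and -0.18 in run 2 (rho -0.19). With transcript length in its place r was weaker in run 1, at 0.37 (rho 0.41), and -0.12 in run 2 (rho -0.09). Both lengths are the longest annotated for each gene. Members share their libraries and are not independent, so these are descriptions. The 26 members with the shortest coding sequences had a run 1 median of -0.94, and 26 of 26 were lower; all tested genes of those lengths had a median of -0.54. The middle 25 had -0.69, against -0.29 for all 627 genes of those lengths. The longest 26 had -0.13, against 0.11 for 4612 genes. With the trend in coding length removed from each profile, an alternative added after seeing the data, the run 1 median was -0.30. Members are mostly short, with a median coding length of 426 nt, and complex II has the longest (676.5 nt). Cytosolic ribosomal proteins, also short, had a run 1 median of -0.71 with 78 of 81 lower. The part of length in the run 1 difference was not tested beyond these values.

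**Figure D5:**
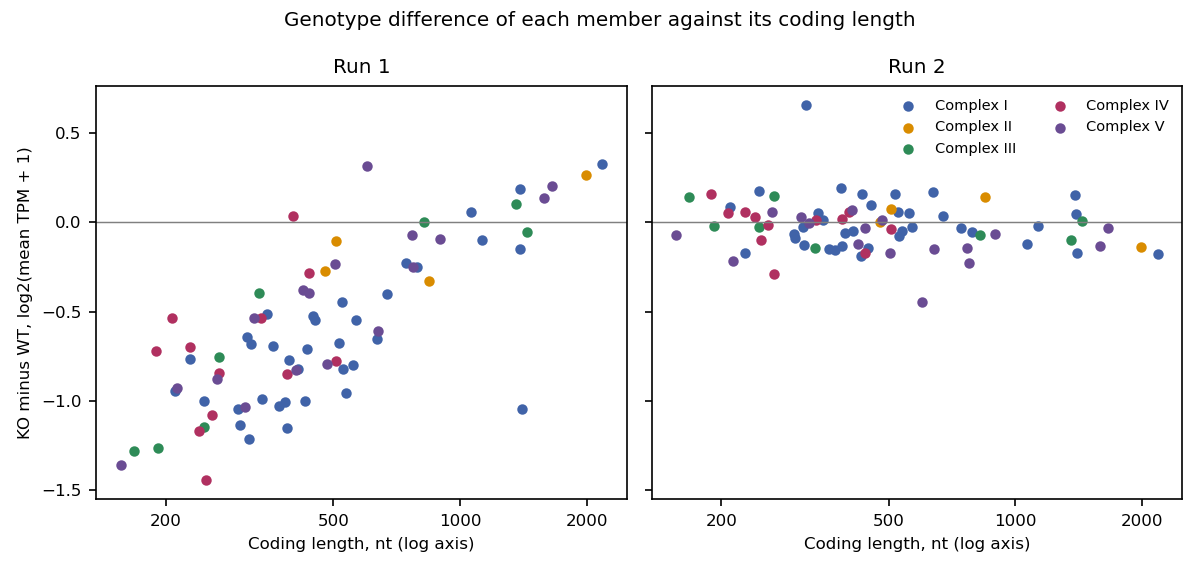
KO minus WT difference of each member in log2(mean TPM + 1) (y axis) against its coding length in nt (x axis, log scale), in run 1 (left) and run 2 (right), coloured by complex. In run 1 short members lie lowest (r = 0.76), and in run 2 no such slope is seen (r = -0.18); Ndufv3 lies low in run 1 despite a long annotated coding sequence.

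Each of the 6 cell types had a negative median in run 1. The median KO minus WT difference over members was -0.87 in Stem, -0.63 in TA, -0.64 in Enterocyte.prog.early, -0.55 in Enterocyte.prog.late, -0.61 in Enterocyte and -0.65 in Goblet cells, with 65 to 72 of 77 members lower. The Stem value rests on 4 cells of KO M2. KO M2 gave -1.44 to -0.86 and KO M1 -0.29 to -0.10 across these types. The medians over all genes were between -0.06 and 0.25, and 35.3% to 54.2% of all genes were lower. In run 2 the medians were 0.05, -0.03, 0.01, 0.01, 0.21 and -0.45 in the same order. The Goblet value came mostly from KO M1 (-0.74, against -0.07 for KO M2), WT M1 gave 3 Goblet cells, and all genes had a median of -0.33 there. These 12 values were not tested one by one, as an animal gave as few as 3 cells.

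The related lists stood in run 1 as follows, with 0 genes of any of them called by limma. Mitochondrial ribosomal proteins had a median of -0.34 (65 of 76 lower) and the import machinery -0.30 (18 of 22 lower). Citric acid cycle genes had 0.07 (5 of 16 lower), glycolysis 0.10 (3 of 14 lower), assembly factors 0.08 (14 of 36 lower), mitophagy 0.02 (3 of 8 lower) and regulators 0.34 (2 of 9 lower). Chain proteins outside the symbols had -0.28 (9 of 13 lower), with Ndufab1, the acyl carrier protein of complex I, at -0.89 (SE 0.38). Over these lists the smallest p belonged to the ribosomal proteins Rps27 (-4.98, SE 0.48, limma adjusted p = 0.160) and Rpl38 (-1.33, SE 0.37) among lower genes, and to Cox18, which inserts a complex IV subunit (0.93, SE 0.29), and Dhodh, which feeds ubiquinone from pyrimidine synthesis (0.88, SE 0.32), among higher ones. In run 2 every one of these medians lay between -0.14 and 0.09.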

How the data were processed

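For the single-cell libraries the labels' protocols name SMART-Seq2 and also a 10X Genomics Chromium kit. Values were deposited by the authors as TPM per gene and cell. Bowtie, TopHat and RSEM are listed in the submitters' processing notes, without versions, and the genome build and strand setting are not given in the sources used here. All 677 columns were matched to samples by title. TPM summed to 999999 to 1000001 per cell, so depth is unknown, and tests on TPM compare relative abundance.

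TPM was averaged over the cells of each animal and type, and log2(mean TPM + 1) was tested with limma 3.58.1 (R 4.3.3; eBayes with trend, two-sided, Benjamini-Hochberg adjustment over 6813 genes with a mean of at least 10 TPM and above 0 in at least 10% of cells). Genotype was compared on the mean of 6 types within each run, and types with the animal as covariate. Scripts were tested on simulated data. Tables and figures used Python 3.11.15, pandas 2.3.3, numpy 2.4.6 and matplotlib 3.10.9. Lengths are the longest annotated for each gene in GENCODE M21, and promoters come from RefSeq. The members and lists were chosen with earlier results of these data known. Named were the highest member of each complex, the 2 smallest p in each direction of each contrast, called members that went against the rest, and paralog sets; others stand as examples chosen after their values were seen. Some genes that enter the counts are not reported by name here. Alternatives covered pseudocounts, filters, scaling, length trends, left-out animals, runs, genotypes and the replicate block.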

Additional observations from a re-analysis of the deposited data

Results flagged for a closer look

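Summed TPM by complex and cell type was screened for an animal far from the other 3, and 2 of 54 groups were flagged; chance flags about 1 group in 20. Complex III in Enterocyte cells stood at 6661 TPM in KO M2, with the gap to the next animal at 0.870 of the range. Complex V in Stem cells stood at 10268 TPM in KO M2, with a gap of 0.914 of the range. In both KO M2 was the lowest animal, and the cause was not tested.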

How the results depend on the processing

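Depth cannot be read from TPM, 2 animals per genotype limit every genotype test, and types were assigned by the authors. For Enterocyte minus Stem the median over members kept its sign under every alternative run: it was 0.80 with log2 values averaged over cells, 0.33 with quantile normalization (41 higher, 6 lower), 0.39 without cytosolic ribosomal protein genes, 0.38 with the transcript length trend and 0.42 with the coding length trend removed, 0.72 in run 1 cells and 0.73 in KO cells. The median of all genes was -0.28 as reported, 0.05 with log2 values averaged, -0.05 with quantile normalization and -0.46 without ribosomal protein genes. Members called lower numbered 1 in run 2 cells and 1 in KO cells, where 22.2% and 23.6% of all genes were. For Goblet minus Stem, 0 members were called higher at a mean of at least 50 TPM (18.8% of all genes). That filter leaves out Cox7a1, at 48.0 TPM over all cells, so its call could not recur. In run 1 cells 25 members were called lower (median -0.24), and 27 in WT cells. The median was -0.73 in run 2 cells. Ndufa1 turned to -0.089 and -0.17 with the transcript and coding length trends removed and to -0.13 in run 2 cells.

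With each animal left out in turn, run 1 gave 0 to 56 members called lower and a median of -1.10 to -0.20, run 2 a median of -0.078 to 0.014, the difference between runs 0 to 36 members called higher and a median of 0.15 to 1.07, and both runs a median of -0.51 to -0.13. The 56 and 36 calls came without KO M1, and the medians nearest 0 in run 1 and both runs without KO M2. The run 2 median was -0.10 with log2 values averaged and 0.045 in cells with at least 5000 genes. Over both runs it was -0.13 with the transcript length trend removed, and Ndufs1 turned to -0.070 without the run 1 cells of KO M2. With the replicate number as a block, 0 members were called in each genotype comparison, while genes called went from 7 to 19 in run 2 and from 0 to 2 over both runs; same-numbered animals correlated at -0.04, 0.02 and -0.13 (run 1, run 2 and both). With the pairing crossed, chosen after seeing the data, 13 members were called lower over both runs, where 0.543% of all genes were. The cause was not tested where none is named.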
